A study of Mus musculus with 8 samples.

Results

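The comparison described here pooled every library made from cells with some focal adhesion kinase (FAK) protein and set them against the libraries made from cells without it. Mouse cutaneous squamous cell carcinoma (SCC) cells were taken from tumours that a chemical carcinogen and a tumour promoter had raised in K14CreER FAKflox/flox FVB mice, with Ha-Ras as the driver gene. FAK was deleted in culture with 4-hydroxytamoxifen, and 1 FAK-/- clone then received a retrovirus for FAK-WT, for FAK-nls (R177A, R178A, R190A, R191A, R216A and R218A, impaired in nuclear localization) or for FAK-kd (K454R, kinase-deficient). There were 4 lines with 2 libraries each, so 6 libraries had FAK protein and 2 were FAK-/-. All 4 lines share the floxed genotype, the tumour origin and the deletion. The 3 FAK-expressing lines also share a transduction and a hygromycin selection, and no such step is stated for the FAK-/- cells, which the labels call the control. FAK protein and transduction with selection therefore cannot be told apart in this comparison, and each line stands for 1 cell population. The 6 libraries with FAK are 2 from each of 3 lines rather than 6 independent lines.

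Chromatin accessibility was measured by ATAC-seq, in which a transposase cuts open DNA and leaves sequencing adapters there. The files list called peaks for each library. To give each library the same number, its 24383 peaks with the highest −log10 p-value were taken, the length of the shortest list, and overlapping peaks were merged into 40309 regions in the mm10 build. A region was called in a library if a peak of that library overlapped it. The FAK-present set held the regions called in at least 5 of the 6 FAK-expressing libraries and in neither FAK-/- library. It had 550 members, which is 1.36% of all merged regions. The FAK-absent set held the regions called in both FAK-/- libraries and in at most 1 of the 6, and had 828 members, 2.05% of the regions. Membership follows from the calls themselves, so the calls below describe the members and do not test them.

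FAK is a tyrosine kinase that binds at focal adhesions, where integrins connect the extracellular matrix to the actin cytoskeleton, and it also enters the nucleus, where it binds transcription regulators. It does not bind DNA itself. AP-1 factors such as c-Jun, and ETS factors, act downstream of the Ras and MAP kinase pathways and bind many of the accessible sites of growing cells. Promoters tend to be open in many cell states, whereas distal sites are more variable.

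The lists differed in length, from 24402 peaks in FAK-nls replicate 1 to 53728 in FAK-WT replicate 1, so the equal number was 100% of the first list and 45.4% of the second. The weakest peak used had a −log10 p-value of 3.36 in the first of these and 8.10 in the second. Sequencing depth was not analysed here. Of the 10 promoters of keratinocyte and SCC markers, 8 were called in no library, among them *Krt5*, *Krt14*, *Trp63* and *Cdh1*, while *Itga6* was called in all 8 and *Itgb4* in 1. In the full lists, 4 of the 10 still had no peak in any library. Among 8 fibroblast markers, *Col1a2*, *Pdgfrb* and *Twist1* were called in all 8 libraries and *Dcn* and *Lum* in none, and 4 of 6 leukocyte, 4 of 4 endothelial and 3 of 4 melanocyte markers were called in none, while the melanocyte marker *Mitf* was called in all 8. In the full lists, 5 of the 8 fibroblast markers had a peak in all 8 libraries, and 4 leukocyte, 2 endothelial and 3 melanocyte markers had none in any. The accessible promoters thus do not show the defining keratinocyte markers that the label implies, in cells with FAK or without it. The peaks at *Ptk2*, which encodes FAK, could not check the labels, because peak lists do not measure the deleted part: 6 to 8 regions were called at the gene in each library and its promoter was called in all 8.

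The sequences at the head of both sets are shown because these regions lead the sets. The motif counts of the sets below were read from a longer stretch, the central 500 bp, which can hold further motifs. Each is the central 200 bp of a region on the + strand of mm10, with the gene of the nearest protein-coding start as its name. Capitals mark motifs found on either strand. The AP-1 motif was searched as TGACTCA and as TGAGTCA. For GATA factors, which take part in differentiation, the letters searched were AGATAAG and, as the alternative, TGATAAG. The first 3 lines are called in all 6 FAK-expressing libraries and neither FAK-/- library, and the next 3 are called in both FAK-/- libraries and in none of the 6.
Il1rapl1, chrX:87529196-87529395: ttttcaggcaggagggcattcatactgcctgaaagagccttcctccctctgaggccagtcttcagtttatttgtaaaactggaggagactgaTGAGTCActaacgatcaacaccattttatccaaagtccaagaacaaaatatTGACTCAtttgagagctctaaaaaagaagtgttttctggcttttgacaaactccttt
Mettl4, chr17:94002284-94002483: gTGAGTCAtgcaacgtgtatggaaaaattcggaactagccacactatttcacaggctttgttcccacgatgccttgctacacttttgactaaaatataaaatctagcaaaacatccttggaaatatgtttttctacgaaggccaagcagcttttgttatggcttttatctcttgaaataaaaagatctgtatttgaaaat
Epha3, chr16:63412870-63413069: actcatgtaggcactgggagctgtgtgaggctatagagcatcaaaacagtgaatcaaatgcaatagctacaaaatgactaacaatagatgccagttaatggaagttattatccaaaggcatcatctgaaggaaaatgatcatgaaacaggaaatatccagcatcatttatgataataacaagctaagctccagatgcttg
Xylt1, chr7:117553251-117553450: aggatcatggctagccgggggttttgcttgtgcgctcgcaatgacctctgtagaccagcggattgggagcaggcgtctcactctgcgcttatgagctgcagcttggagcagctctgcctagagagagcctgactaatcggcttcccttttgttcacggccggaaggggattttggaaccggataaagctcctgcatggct
Gm20696, chr6:99446926-99447125: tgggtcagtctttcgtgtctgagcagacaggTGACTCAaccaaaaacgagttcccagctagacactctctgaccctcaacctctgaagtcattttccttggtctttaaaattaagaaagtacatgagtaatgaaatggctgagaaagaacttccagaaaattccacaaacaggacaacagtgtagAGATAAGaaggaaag
Fstl1, chr16:37728755-37728954: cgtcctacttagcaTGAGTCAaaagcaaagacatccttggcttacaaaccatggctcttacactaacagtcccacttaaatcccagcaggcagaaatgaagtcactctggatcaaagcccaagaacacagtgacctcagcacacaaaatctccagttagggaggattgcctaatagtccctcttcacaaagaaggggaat
An AP-1 motif stands in 2 of the first 3 stretches and in 2 of the last 3. Of all merged regions, 26.2% held an AP-1 motif and 2.33% a GATA motif in the central 200 bp.

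The first question was whether the number of such regions was larger than a division of the libraries unrelated to FAK would give. Every choice of 2 of the 8 libraries was therefore put in the place of the FAK-/- pair, which gives 28 choices and a smallest possible p of 0.0357. The 550 regions of the FAK-present set ranked 2 of the 28 (exact permutation test, one-sided, p = 0.0714). The FAK-nls pair in that place gave 1026 regions, the FAK-WT pair 494 and the FAK-kd pair 387, while the 24 choices that mixed 2 lines gave 219 to 445, with a median of 312.5. The 828 regions of the FAK-absent set ranked 3 (exact permutation test, one-sided, p = 0.107), behind the FAK-nls pair with 1118 and the FAK-WT pair with 839. The FAK-kd pair gave 541 and the mixed choices 333 to 726, with a median of 413. Neither count passed 0.05. The FAK-/- pair gave more regions of both kinds than any pair of libraries from different lines, and so did the FAK-WT and the FAK-nls pair. The FAK-present count fell below the mean of the other choices with all deposited peaks (303 against 630.0), with a minimum −log10 q of 3 (194 against 537.7) and with 50% of a region covered (348 against 449.7). The FAK-absent count of 692 with the minimum −log10 q was hardly above that mean, 681.9. Leaving out FAK-/- replicate 1 gave FAK-present and FAK-absent counts of 1394 and 2549, against means of 1333 and 2510. Leaving out FAK-/- replicate 2 gave 1371 and 2514, against 1334 and 2500. In both cases each choice was 1 library instead of 2, and no pair from a line was compared. These small excesses therefore cannot show whether the counts rest on 1 FAK-/- replicate. Without FAK-nls replicate 1, 21 choices remained and the FAK-/- pair was first for both counts, with 753 and 1034 regions, and without FAK-nls replicate 2 it was first for the FAK-absent count of 1037 (each by exact permutation, p = 0.0476, unadjusted). With either library left out, the FAK-nls pair that ranked ahead can no longer be chosen, and most remaining choices mix lines. The permutation takes no account of lines.

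**Figure D1:**
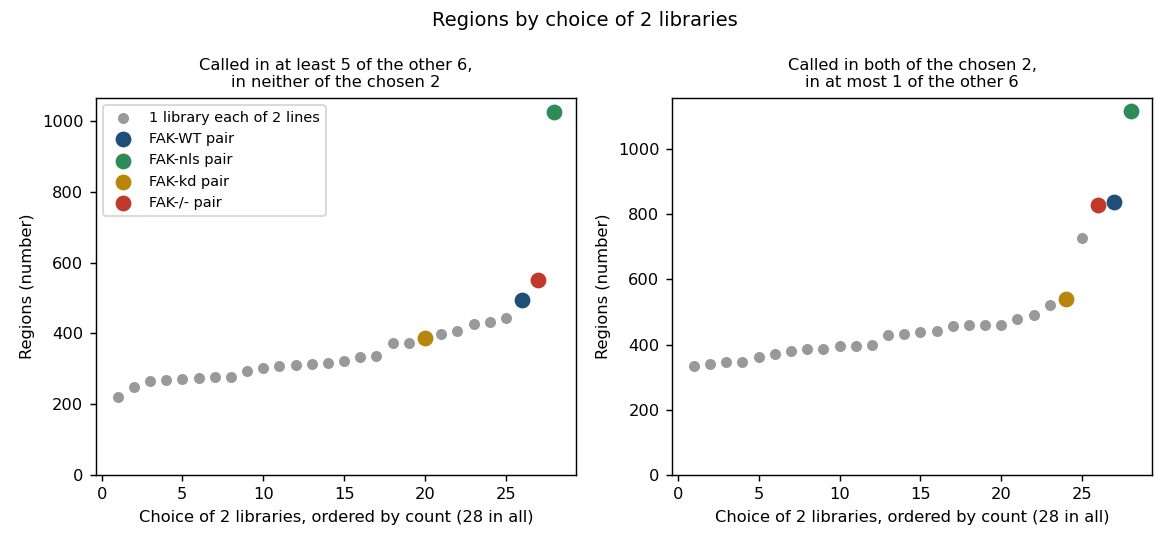
Number of regions (y axis) for each of the 28 choices of 2 libraries put in the place of the FAK-/- pair, ordered by count (x axis). Large points are the 2 libraries of 1 line and small grey points mix 2 lines. The FAK-/- pair sits at 550 on the left and at 828 on the right, and the FAK-nls pair is highest on both at 1026 and 1118.

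The overlap between the 24383 peaks of each library was not divided by FAK protein either. The Jaccard index, the bases covered by peaks of both libraries over the bases covered by either, was 0.610 for the FAK-/- pair. It averaged 0.5257 over the 15 pairs among the 6 libraries with FAK (0.446 to 0.607) and 0.545 over the 12 pairs between the groups (0.476 to 0.584). The mean within groups minus that between groups was −0.0137, and 17 of the 28 choices gave a difference at least as high (exact permutation test, one-sided, p = 0.607). Libraries with FAK protein were thus, on average, no more like each other than they were like FAK-/- libraries. Leaving out 1 library gave −0.0226 (without FAK-/- replicate 2) to −0.00724 (without FAK-nls replicate 1), or −0.00803 without FAK-nls replicate 2 and −0.00909 without FAK-WT replicate 1. Without the FAK-nls line this difference turned to 0.0116. With all deposited peaks it was −0.0280.

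Of the 550 regions of the FAK-present set, 164 were called in all 6 libraries and 386 in 5 of 6. The library that lacked the call was FAK-kd replicate 1 in 81 regions, FAK-WT replicate 1 in 77, FAK-kd replicate 2 in 70, FAK-nls replicate 2 in 56, FAK-nls replicate 1 in 54 and FAK-WT replicate 2 in 48. Every line contributed missing calls, with 151 from FAK-kd, 125 from FAK-WT and 110 from FAK-nls. Of the 828 regions of the FAK-absent set, 310 were called in none of the 6 and 518 in 1 of 6. That 1 library was a FAK-kd library in 213 regions, a FAK-WT library in 177 and a FAK-nls library in 128. Just outside the rule were 755 regions called in 4 of 6 and neither FAK-/- library, 1665 called in at least 5 of 6 and in 1 FAK-/- library, and 800 called in both FAK-/- libraries and in 2 of 6. The stricter patterns made up 0.407% (all 6 and neither) and 0.769% (both and none) of the regions.

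Most members were among the weaker peaks used. In the 6 FAK-expressing libraries, 66.1% to 84.4% of the FAK-present regions called lay among the weaker 50% of the peaks used, and in the FAK-/- libraries this was so for 87.2% and 89.3% of the FAK-absent regions. Peaks beyond the equal number are in the full lists. Of the 550 FAK-present regions, 363 (66%) had a weaker peak in both full FAK-/- lists, 124 had one in 1 list, and 63 (11.5%) had none in either. Of the 828 FAK-absent regions, 27 (3.26%) had no peak in any of the 6 full FAK-expressing lists, and 51 had one in at least 5. A peak at any rank was present for 90.2% of them in FAK-WT replicate 1, 73.8% in FAK-kd replicate 2, 61.6% in FAK-WT replicate 2 and 50.1% in FAK-kd replicate 1, but for 7.13% and 9.66% in the FAK-nls libraries, whose full lists were hardly longer than the equal number. Most FAK-present regions were thus called, at a lower rank, in at least 1 FAK-/- library. The part of list length in these shares was not tested.

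**Figure D2:**
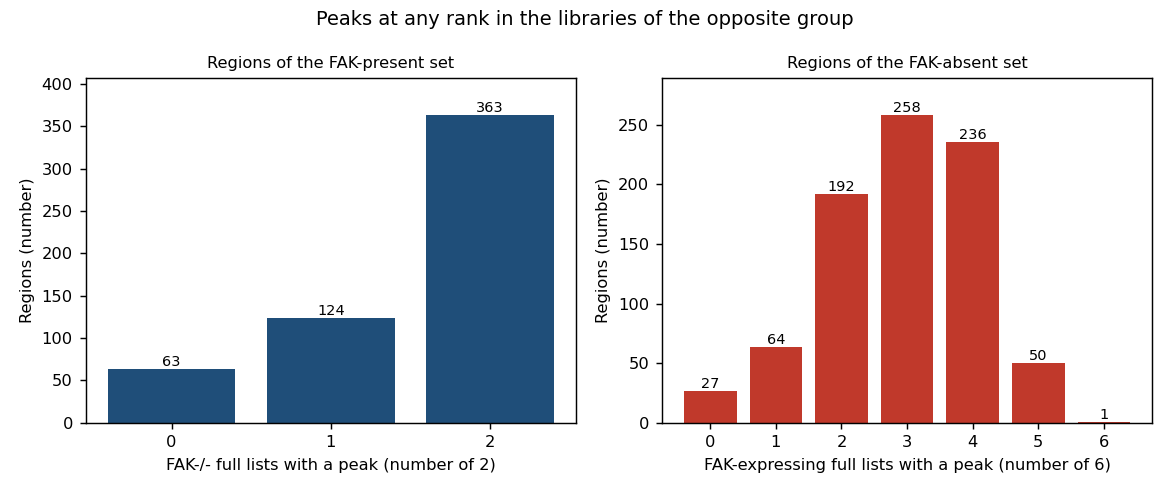
Regions of each set (y axis, number) by how many full peak lists of the opposite group held a peak there at any rank (x axis). On the left 363 of 550 regions had a peak in both FAK-/- lists, and on the right 27 of 828 had none in the 6 FAK-expressing lists.

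Of the FAK-present set, 37.6% lay at promoters (500 bp upstream to 2000 bp downstream of an annotated transcript start), 28% in introns and 32.7% between genes. The FAK-absent set had 15.3% at promoters, 46.4% in introns and 34.8% between genes, and all merged regions had 31.7%, 35.5% and 30.4%. Counting each overlap with a promoter, the shares were 38.9% and 16.8%, against 33.4% of all regions. The difference of 22.1 percentage points was matched in size by 9 of the 28 choices (exact permutation test, two-sided, p = 0.321, 0.643 adjusted over 9 features). It vanished, at −0.000632 points, when all deposited peaks were used. Of the 11789 regions at promoters of protein-coding genes, 192 (1.63%) were FAK-present and 104 (0.882%) FAK-absent, and of the 28520 other regions 358 (1.26%) were FAK-present and 724 (2.54%) FAK-absent. Regions away from promoters were the larger part of both sets. The members of the FAK-present set were longer, with a median of 773.5 bp against 460 bp and 674 bp over all regions, and a region called in more libraries is a union of more peaks. Of the 13172 regions called in all 8 libraries, 50.9% lay at promoters. The part of the number of calling libraries in the promoter shares of the sets was not tested.

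AP-1 motifs were found in the central 500 bp of 211 of the 550 FAK-present regions (38.4%, 95% Wilson interval 34.4% to 42.5%) and of 417 of the 828 FAK-absent regions (50.4%, 47.0% to 53.8%), against 38.9% of all regions. Of the regions called in all 8 libraries, 34.0% held an AP-1 motif. Intervals cover the counting of regions only. The difference of −12.0 percentage points was reached in size by 14 of the 28 choices (exact permutation test, two-sided, p = 0.5, adjusted p = 0.643), so a difference of this size is common when libraries are divided without regard to FAK. Leaving out 1 library gave −17.4 (without FAK-WT replicate 1) to −3.43 (without FAK-/- replicate 1). It also turned to 14.3 when all deposited peaks were used and to 0.335 among regions outside promoters. GATA motifs were in 4.18% of the FAK-present and 7.61% of the FAK-absent regions (7.14% of all). Their difference of −3.43 points was the lowest of the 28 choices, 1 other choice was as far from 0 in the other direction (exact permutation test, two-sided, p = 0.0714, adjusted p = 0.643), and with all deposited peaks it turned to 1.00. Without FAK-WT replicate 1 it was −3.35 and without FAK-nls replicate 2 −2.45 (each by exact permutation, two-sided, p = 0.0476, unadjusted). It shrank to −1.40 without FAK-kd replicate 1 (exact permutation p = 0.476), to −1.61 without FAK-/- replicate 2 and to −2.21 without FAK-/- replicate 1.

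The motif of CTCF, which binds at loop anchors and insulators, was in 2.00% of FAK-present and 6.64% of FAK-absent regions, against 3.96% of all. RUNX motifs (TGTGGTTA or TGTGGTTT) were in 10.5% and 6.76%, against 8.38%. ETS motifs (AGGAAGT or CGGAAGT) were in 18% of both sets, TEAD motifs (ACATTCC or GCATTCC) in 15.6% and 15.8%, and the p53 half-site in 3.45% and 4.71%. Mean GC content was 51.03% and 47.9%, against 50.98% over all regions. Of these 9 features none passed the exact permutation test at 0.05, adjusted or unadjusted, with p from 0.0714 to 1 and adjusted p of 0.643 or more. The motif of ETS factors was at nearly the same share in both sets, but its difference ranged from −9.33 to 9.28 points over the 28 choices, so the comparison could not resolve a difference of a few points.

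**Figure D3:**
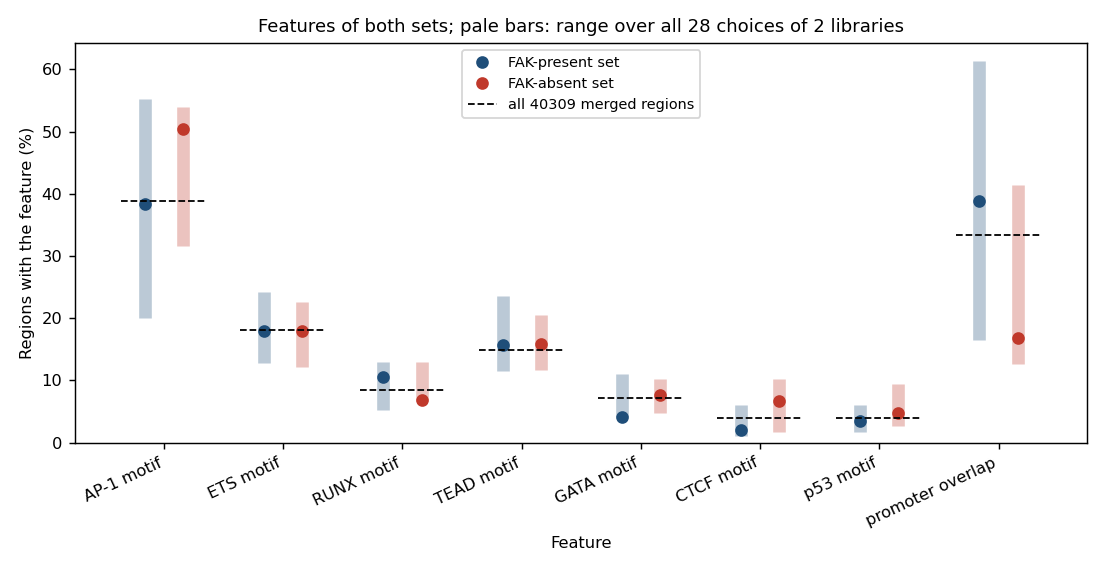
Share of regions with each motif in the central 500 bp, or overlapping a promoter (y axis, %), for the FAK-present and the FAK-absent set (points) and for all merged regions (dashed lines). Pale bars span the same share over all 28 choices of 2 libraries, the FAK-/- pair included, so each point is 1 of the 28 values behind its bar. The GATA share of the FAK-present set is the lowest of its 28 values.

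The same features were also counted over all 24383 peaks of each library, without any set. AP-1 motifs were in 41.6% and 40.02% of the peaks of the FAK-WT libraries, 37.9% and 39.0% of FAK-nls, 39.2% and 39.0% of FAK-kd and 40.8% and 40.3% of FAK-/-. Both FAK-/- libraries lay between the FAK-WT libraries. The means were 39.4% ± 1.27 (SD, n = 6) with FAK and 40.5% ± 0.307 (SD, n = 2) without (exact permutation test, two-sided, p = 0.25, adjusted p = 0.429). Promoter overlap was 41.6% ± 1.62 (SD, n = 6) with FAK and 40.2% ± 0.574 (SD, n = 2) without (exact permutation test, two-sided, p = 0.286, adjusted p = 0.429), and the FAK-WT libraries, at 38.8% and 41.1%, again enclosed the FAK-/- values of 39.8% and 40.6%. Without FAK-WT replicate 1 these differences were −1.54 and 2.03 points (each by exact permutation, two-sided, p = 0.0476, unadjusted). This is the smallest p that the 21 remaining choices allow, and it was not adjusted over the 9 features. The same held for GC content, whose difference was 0.281 points without that library (exact permutation, two-sided, p = 0.0476, unadjusted). With all deposited peaks the AP-1 difference was only −0.122 (exact permutation p = 0.821). RUNX motifs were at 8.13% ± 0.127 (SD, n = 6) and 7.88% ± 0.249 (SD, n = 2), a difference of 0.249 points (exact permutation test, two-sided, p = 0.107, adjusted p = 0.429), and it reached the smallest possible p of 0.0357 by exact permutation, unadjusted, with all deposited peaks or with the central 200 bp. Without FAK-kd replicate 2 it was 0.287 (exact permutation p = 0.0476, unadjusted). It shrank to 0.115 with the minimum −log10 q (exact permutation p = 0.643) and to 0.0725 without FAK-/- replicate 2 (exact permutation p = 0.571), and was 0.425 without FAK-/- replicate 1. The other 6 features had adjusted p of 0.429 or more.

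**Figure D4:**
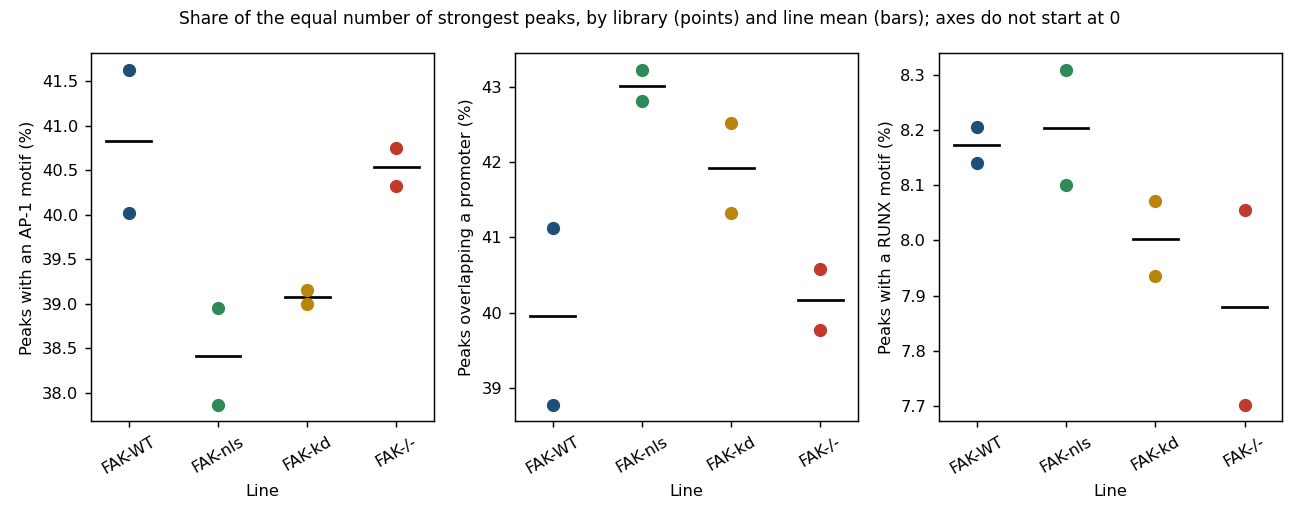
Share of the 24383 strongest peaks of each library (points) with an AP-1 motif, overlapping a promoter, and with a RUNX motif (y axes, %, not starting at 0), by line (x axis), with line means as bars. The FAK-/- libraries fall between the FAK-WT libraries for AP-1 and for promoters, and their mean is the lowest of the 4 lines for RUNX.

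The 10 leading regions of the FAK-present set were those called in all 6 libraries with the best rank in their weakest library. Their fold enrichment over the local background ran from 4.13 to 9.20 in the 6 libraries. All 10 had a peak in the full list of FAK-/- replicate 1 and 5 in that of FAK-/- replicate 2, at 3.26 to 4.34. Fold enrichment is scaled to the background of its own library and was not compared between libraries by a test. The first was an intronic region of *Il1rapl1*, a member of the interleukin-1 receptor family known from synapses, at chrX:87528974-87529617. Its fold enrichment was 8.97 and 6.73 in FAK-WT, 5.84 and 6.51 in FAK-nls, 6.83 and 8.85 in FAK-kd, and 4.24 and 3.65 in FAK-/-, where the peaks ranked beyond the equal number. The groups did not overlap at this region, which the choice by rank favours. A second region of the FAK-present set lay in the same gene, 132.3 kb from one outer end to the other, and 4 regions in all were called at *Il1rapl1*.

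*Dusp5*, which encodes a nuclear phosphatase that inactivates the MAP kinase ERK, led the promoters of the FAK-present set (chr19:53528728-53529593, over the first exon). Its fold enrichment was 4.41 and 4.58 in FAK-WT, 4.45 and 4.42 in FAK-nls and 4.19 and 4.49 in FAK-kd. FAK-/- replicate 1 had a peak of 3.34 at rank 24847, just beyond the 24383 used, and FAK-/- replicate 2 had no peak in its list. The 6 FAK-expressing values lay within 4.19 to 4.58, above the single FAK-/- value, which the choice by rank favours here too. The 214 bases before the annotated first exon, from the RefSeq promoter table (GRCm38.p6, + strand), are shown because this promoter carries the call. Capitals mark an ETS motif and 2 adjacent CArG boxes of 10 bases, the site of serum response factor, which begin 46 and 36 bases before the first exon. An annotated antisense transcript covers the stretch.
Dusp5 promoter, chr19:53528895-53529108: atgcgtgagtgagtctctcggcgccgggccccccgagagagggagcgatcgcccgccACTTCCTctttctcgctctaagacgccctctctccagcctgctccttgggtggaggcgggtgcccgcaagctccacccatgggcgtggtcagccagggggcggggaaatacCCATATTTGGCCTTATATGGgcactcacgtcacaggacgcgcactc
ETS motifs were in 15.1% and CArG boxes in 1.63% of the 32851 RefSeq promoters, and 6 promoters held at least 2 CArG boxes. CArG boxes were looked for after this sequence had been seen. In the central 500 bp they were in 11 FAK-present regions (2.00%) and 22 FAK-absent regions (2.66%), against 2.38% of all regions, so neither set as a whole stood out for them.

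The next promoters of the FAK-present set were those of *Nckap5l*, of *Recql5* with *Sap30bp* on the other strand, of *Rptor* and of *Psen2*. *Rptor* encodes the scaffold of the growth kinase complex mTORC1 and *Psen2* a catalytic subunit of γ-secretase. At *Nckap5l* (chr15:99457539-99458252) the fold enrichment was 5.67 and 4.93 in FAK-WT, 4.80 and 4.68 in FAK-nls, 4.21 and 5.25 in FAK-kd, and 3.29 and 3.37 in the lower-ranked FAK-/- peaks. *Psen2* (chr1:180255599-180256747) had 4.01 to 5.34 in the 6 libraries and 3.82 and 3.24 in FAK-/-. The *Recql5* region lacked a call in FAK-kd replicate 2, where its peak of 4.44 ranked 25178, and the *Rptor* region lacked one in FAK-kd replicate 1, where its peak of 3.46 ranked 25040. All 5 promoters had a FAK-/- peak in at least 1 full list and were thus not without a call at any rank in FAK-/- cells.

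Distal regions also stood at the head of the FAK-present set. The intergenic region whose nearest coding start is *Mettl4* (chr17:94001673-94003094) had 6.92 and 5.92 in FAK-WT, 4.45 and 4.99 in FAK-nls, 6.77 and 7.13 in FAK-kd, 3.29 in FAK-/- replicate 1 and no peak in replicate 2. The region in an intron of *Mctp1*, a calcium-binding membrane protein, had 9.20 and 4.97 in FAK-WT, 6.64 and 6.13 in FAK-nls, 6.33 and 7.59 in FAK-kd, and 3.26 in FAK-/- replicate 1 only. The 2 FAK-WT replicates thus differed at *Mctp1* by more than the FAK-nls or the FAK-kd replicates did. *Epha3*, a receptor tyrosine kinase for ephrins, was the nearest gene of 2 regions. The 1 between genes (chr16:63412622-63413317) had 4.54 to 6.90 in the 6 libraries and 4.11 in FAK-/- replicate 1. The 1 in the gene (chr16:63632358-63633096) had 3.94 to 6.61 in the 6 libraries and no FAK-/- peak at any rank. *Casz1*, a zinc finger transcription factor, and *Otud7a*, a deubiquitinase, each held 2 regions of the FAK-present set, as did *Vav3*.

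The leading region of the FAK-absent set lay in an intron of *Xylt1* (chr7:117553104-117553596), which encodes the xylosyltransferase that starts glycosaminoglycan chains on proteoglycans. Its fold enrichment was 6.03 and 5.80 in the FAK-/- libraries. FAK-WT replicate 1 had a peak of 3.54 at rank 45743, FAK-kd replicate 2 had 3.37 at rank 40845, and the other 4 had none. The region named for *Gm20696* lies in the gene of the forkhead factor *Foxp1* (chr6:99446733-99447317) and had 5.30 and 4.81 in FAK-/-, 2.94 in FAK-WT replicate 1, 4.22 in FAK-kd replicate 2 and no other peak. The intergenic region closest to *Fstl1*, a secreted glycoprotein (chr16:37728638-37729070), had 5.73 and 5.41 in FAK-/- and no peak in any other library. It was the only 1 of the 10 leading regions without a peak in the FAK-expressing full lists. Over these 10 regions the FAK-/- values ran from 4.15 to 6.54, and the weaker peaks of the opposite group, from 2.94 to 5.14, stood in FAK-WT replicate 1 for 9 regions, in FAK-kd replicate 2 for 8, in FAK-WT replicate 2 for 5, in FAK-kd replicate 1 for 2, in FAK-nls replicate 2 for 1 and in FAK-nls replicate 1 for none. The order of these counts is that of the list lengths, whose part in them was not tested.

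**Figure D5:**
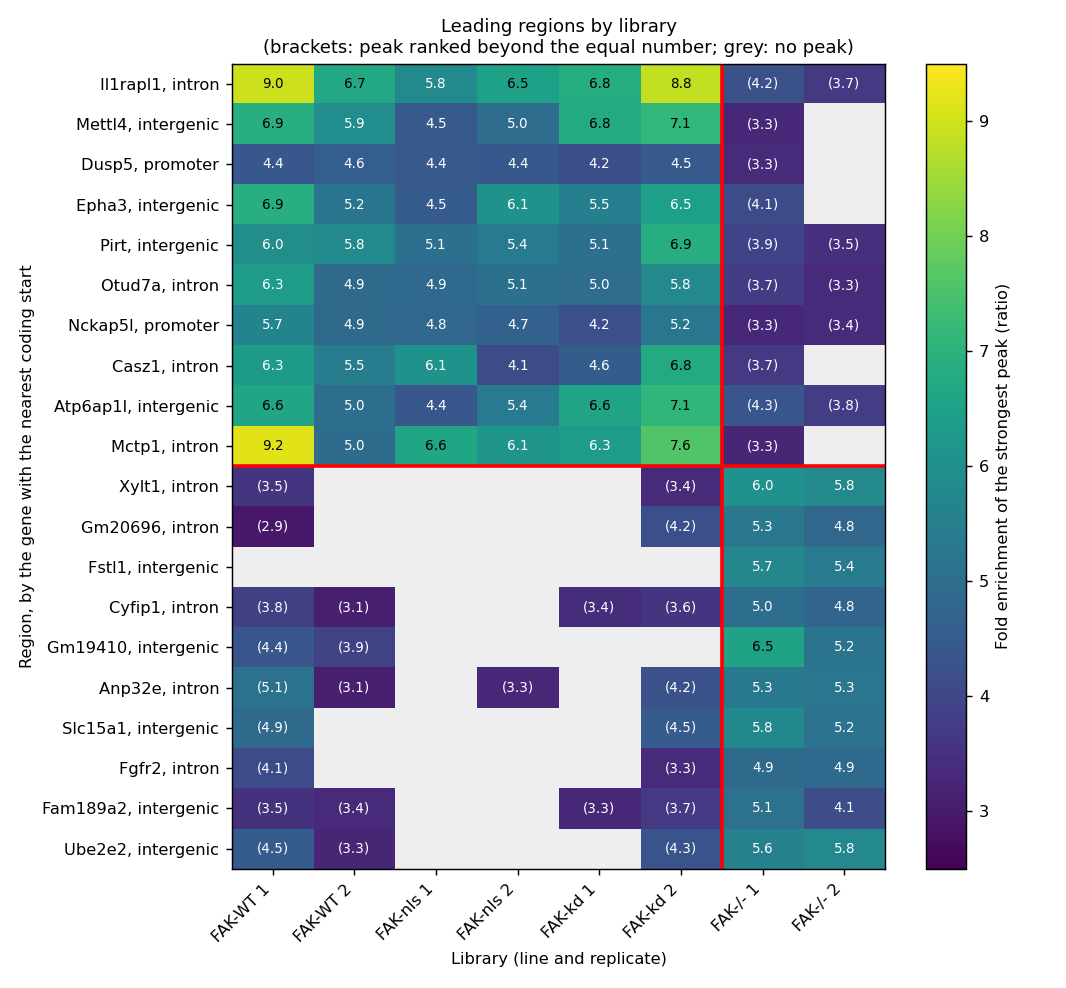
Fold enrichment (colour, with the value printed) of the strongest peak of each library (x axis) in the 10 leading regions of the FAK-present set (above the line) and of the FAK-absent set (below), named by the nearest coding start (y axis). Values in brackets are peaks ranked beyond the equal number and grey cells have no peak. FAK-/- peaks in brackets stand in all 10 upper regions for replicate 1 and in 5 for replicate 2, and the *Fstl1* region has peaks in FAK-/- only.

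*Cyfip1*, a subunit of the WAVE complex that drives actin branching, held the fourth region of the FAK-absent set and another beside it. *Fgfr2*, a receptor for fibroblast growth factors, held 4 regions of the FAK-absent set and 1 of the FAK-present set, but its annotated model spans 2961 kb and holds 92 called regions. In the same way *Gm20388*, with 6 FAK-present regions, spans 4435 kb and holds 173. Of shorter genes, *Dlgap2*, a postsynaptic scaffold, had 4 FAK-absent regions of 29 called. *Arhgap26* (12 called), whose product binds FAK, *Maml2* (15 called), a coactivator of Notch, and *Ptprm* (21 called), a receptor phosphatase at cell contacts, had 3 each. None of the 4 had a FAK-present region. At promoters the FAK-absent set was led by *Aig1*, *Gramd1b*, *Sparcl1*, *Tns3* and *Rrbp1*, each called in both FAK-/- libraries and in 1 FAK-expressing library. *Aig1* (chr10:13861037-13861661) had 6.003 and 5.73 in FAK-/- and 6.19 in FAK-kd replicate 2, so its groups overlapped. *Sparcl1*, a secreted matrix-associated protein, had 6.40 and 5.11 in FAK-/-, 3.95 in FAK-kd replicate 1 and 3.72 in FAK-WT replicate 1, and no other peak.

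Over the genome, 14157 protein-coding genes had a called region in the gene or 10 kb upstream, of which 411 (2.90%) had a FAK-present and 561 (3.96%) a FAK-absent region, and 17 had both. Of 243 genes with a region in 12 lists drawn up for FAK signalling, adhesion, immunity and the tissue, 5 (2.06%) had a FAK-present and 12 (4.94%) a FAK-absent region. Both shares are near those of all genes. The median number of called regions was 2 per gene in the lists and 2 over all genes.

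Of the 33 genes of focal adhesion and FAK signalling with a region, *Tns3*, *Cass4* and *Tns1* had a FAK-absent region. *Tns3* also had a FAK-present region, and was the only list gene with both. Tensins tie integrin tails to actin, and *Cass4* is an adaptor of the Cas family that binds FAK. At the start of *Tns3* (chr11:8663522-8664716) the FAK-present region had 3.69 in FAK-WT replicate 2, 4.41 and 4.01 in FAK-nls and 3.37 and 4.27 in FAK-kd, with lower-ranked peaks of 3.62 in FAK-WT replicate 1 and 3.51 and 3.19 in FAK-/-. At an internal transcript start of the gene (chr11:8544389-8544716) the FAK-absent region had 5.15 and 4.74 in FAK-/- and 5.06 in FAK-kd replicate 1. FAK-kd replicate 2 had a lower-ranked 4.49, and FAK-WT and FAK-nls had no peak. The values overlapped between the groups at the start of the gene and, through FAK-kd, at the internal start. The FAK-nls lists hold hardly any lower-ranked peaks, so a missing peak there says less than one in FAK-WT. The region of *Tns1* was at an internal start too (chr1:73962858-73963508), with 4.45 and 3.35 in FAK-/- and a lower-ranked 4.18 in FAK-WT replicate 1 only. *Cass4* had an intronic region (chr2:172401085-172401531) with 4.42 and 4.01 in FAK-/- and lower-ranked peaks of 3.62 and 3.15 in FAK-WT.

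The 28 integrin and laminin genes with a region had no FAK-present region and 2 FAK-absent regions, in introns of *Itgb8*, whose product activates TGF-β, and *Itga8*. *Itgb8* (chr12:119230592-119230943) had 4.80 and 4.57 in FAK-/- and 3.26 to 3.905 in the lower-ranked peaks of FAK-WT and FAK-kd, and none in FAK-nls. *Itga8* (chr2:12168603-12169079) had 4.70 and 4.12 in FAK-/- and 3.60 to 4.11 in those of FAK-WT and FAK-kd, again with none in FAK-nls. Among 19 ETS factor genes, *Elk4*, a partner of serum response factor, had a FAK-present region at its promoter (chr1:132007279-132008414), with 3.53 and 3.16 in FAK-WT, 3.48 and 3.11 in FAK-nls, 3.21 and a lower-ranked 3.09 in FAK-kd, and lower-ranked 2.95 and 2.64 in FAK-/-. *Elf4* had a FAK-absent region in an intron. Among 19 AP-1 genes, *Batf2* had a FAK-absent region upstream, which lies at the promoter of *Arl2*.

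Of 17 chemokine and cytokine genes with a region, *Ccl5*, a chemokine that draws T cells and monocytes, had a FAK-absent region and none had a FAK-present one. The region lies in an intron of *Ccl5* (chr11:83527941-83528564, gene on the − strand at chr11:83525778-83530518). Its fold enrichment was 4.35 in FAK-/- replicate 1 and 4.45 in replicate 2. It was called in none of the 6 FAK-expressing libraries, but the full lists held 3.97 in FAK-WT replicate 1 at rank 38925 and 3.01 in FAK-kd replicate 2 at rank 45082. Another region, at −4228 bp from the start, was called in all 8 libraries. The central 200 bp are shown because the study names *Ccl5* in connection with FAK, with the AP-1 motif in capitals.
Ccl5 intron, + strand, chr11:83528153-83528352: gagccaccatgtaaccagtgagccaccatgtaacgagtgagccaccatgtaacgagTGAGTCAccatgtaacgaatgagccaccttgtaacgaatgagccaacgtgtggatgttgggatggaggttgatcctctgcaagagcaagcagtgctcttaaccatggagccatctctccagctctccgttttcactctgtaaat
Repeats masked in the reference make up 37.7% of the region, against a mean of 12.8% in the FAK-absent set and 12.3% over all regions. Read placement there was not tested.

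The remaining lists had few members of either set. Of 20 keratinocyte genes, *Klf4* had a FAK-absent region in its promoter window and *Tgm1* 1 upstream, at the promoter of *Rabggta*. Of 19 genes of the epithelial-mesenchymal transition, *Prrx1*, a mesenchymal homeobox factor, had a FAK-present and *S100a4* a FAK-absent region. Of 21 protease genes, *Timp2*, an inhibitor of matrix metalloproteinases, had a FAK-present region in an intron (chr11:118321962-118322471), with 5.03 and 4.50 in FAK-WT, 3.45 and 4.58 in FAK-nls, 5.65 in FAK-kd replicate 2, and no peak at any rank in FAK-kd replicate 1 or in FAK-/-. *Adam19* had a FAK-absent region at its promoter. Among 13 genes of the EGF receptor family and its ligands, *Lrig1*, an inhibitor of EGF receptor signalling, had a FAK-present intronic region. None of the 22 p53 pathway genes, 21 YAP and TEAD genes or 13 growth factor binding genes had a region of either set, so *Cdkn1a* and *Igfbp3* had none.

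Other genes named in connection with FAK also fell outside both sets. *Il33*, a cytokine that acts in the nucleus of these cells, had 3 called regions. That at −7490 bp from the start was called in all 6 libraries with FAK and in FAK-/- replicate 1 but not replicate 2, so it missed the FAK-present set by 1 library, and that at 17470 bp had calls in FAK-WT replicates 1 and 2 and in FAK-/- replicate 1. The third, at 21292 bp, was called in FAK-nls replicate 1 only. *Cxcl10* had a promoter region in both FAK-WT libraries and FAK-kd replicate 2, and another at −4887 bp in FAK-/- replicate 2 and FAK-kd replicate 2. *Cdkn1a* had 1 region, called in 4 of 6 and in FAK-/- replicate 2. The *Jun* promoter was called in all 8, *Vcam1* had 1 region called in all 8, and *Igfbp3* had no called region in any library.

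Members were spread over the genome. The share of regions in the FAK-present set ran from 0.771% on chromosome 14 to 1.86% on the X chromosome, and that in the FAK-absent set from 1.17% on chromosome 15 to 2.88% on chromosome 7, leaving aside the 4 regions of chromosome Y. Neighbouring regions of the same set formed 15 runs of 32 FAK-present and 28 runs of 57 FAK-absent regions, none longer than 3. Runs of 3 lay near *Lrrc4c* and *Galnt13* for the FAK-present set and near *Gpd2* and *Galnt5* for the FAK-absent set.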

How the data were processed

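ATAC-seq peak lists of 8 libraries were grouped by line from the labels. The study calls the 2 libraries of a line biological replicates, the labels do not say so, and each line is 1 population, so p-values measure the spread between these libraries. The authors aligned reads to mm10 with the bcbio pipeline and called broad peaks per sample with MACS2 (2.1.1 in the submitters' processing notes) at a stated q-value of 0.05. Between 0.784% and 3.83% of the peaks per library had a weaker q-value. The deposited pileup is coverage signal, the deposited −log10 p-value and −log10 q-value rate it against the local background, and the deposited fold enrichment is the ratio of the pileup to that background. Peak length is given in bp. The lists hold no read counts, so only calls were compared, and a region without a call can still be accessible.

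Only chromosomes 1 to 19, X and Y were used (15 to 25 peaks per library lay elsewhere). Peaks were ranked by −log10 p, cut to 24383 per library and merged on an overlap of at least 1 bp. No pair of libraries had a peak identical in position and p-value. Gene positions came from GENCODE vM21 and motifs were exact matches on both strands in the mm10 sequence. The CTCF motif and p53 half-site were degenerate consensus matches. Counts over the 28 choices of 2 libraries were tested one-sided and features two-sided by exact permutation, with Benjamini-Hochberg adjustment over 9 features. Python 3.11.15, pandas 2.3.3, numpy 2.4.6, scipy 1.17.1 and pysam 0.24.0 were used, and the counting was tested on simulated data.

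The members and gene lists were chosen with earlier results of these data known. Named regions were the 10 of each set with the best worst rank over the libraries calling them (all 6, or both FAK-/- and none of 6), the 5 best at coding promoters, the 5 genes with the most regions per set, up to 4 list genes each and 8 genes the study names. Of the lists, 5 symbols did not match the annotation. The central bases of the *Dusp5* region overlap its first exon and were replaced by the bases before it, and the *Epha3* region was shown in its place.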

Additional observations from a re-analysis of the deposited data

Results flagged for a closer look

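The covered length at equal peak number differed between lines with FAK. Both FAK-WT libraries covered more than the FAK-/- mean and both FAK-nls libraries less, and the means of the 2 lines differed by 4.88 Mb. The values were 19.0 and 17.0 Mb in FAK-WT, 13.2 and 13.0 Mb in FAK-nls and 16.6 and 15.5 Mb in FAK-/-. The difference between the lines was not tested.

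Both FAK-WT libraries had a higher share of peaks with a TEAD motif than the FAK-/- mean, and both FAK-nls and both FAK-kd libraries a lower one. FAK-WT exceeded FAK-nls by 0.619 points and FAK-kd by 0.738 points, which was not tested. The share with a p53 half-site followed the same order for FAK-WT and FAK-nls, with a difference of 0.265 points that was not tested either.

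Among the 6 libraries with FAK, FAK-WT replicate 1 had the lowest GC content of peaks, 52.4%, far from the other 5 at 52.97% to 53.3%. Chance alone flags about 1 of 20 groups of independent samples in this way, and these 6 libraries come from 3 lines.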

How the results depend on the processing

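In the setting reported, none of the tests passed 0.05, so no call could be lost. With all deposited peaks the FAK-present count was 303, with a minimum −log10 q of 3 it was 194 and with 50% of a region covered it was 348. These 3 counts were below the mean of the other choices (630.0, 537.7 and 449.7), so the excess turned, and the cause was not tested. With 12000 peaks it was 330, and in all 6 and neither FAK-/- library it was 164. Without the FAK-WT, FAK-nls or FAK-kd line it was 1379, 1187 and 1358, and leaving out 1 library each gave 753 to 1394, since fewer libraries make the pattern easier to meet. The mean of the other choices was 359.3 in the setting reported. Without FAK-/- replicate 1 (1394 against a mean of 1333) or replicate 2 (1371 against 1334) the excess was small. Each choice was then 1 library and not a pair, so these counts are not comparable with the setting reported. The lowest of these counts, 753 without FAK-nls replicate 1, passed by exact permutation (p = 0.0476, unadjusted), with the FAK-nls pair no longer among the choices. The FAK-absent count was 310 in its strict form, 1689, 1363 and 1598 without those lines, and 1034 to 2549 without 1 library. Against the mean of the other choices (471.5 in the setting reported), the excess nearly vanished with the minimum q (692 against 681.9). It was also small without FAK-/- replicate 1 (2549 against 2510) or replicate 2 (2514 against 2500), where each choice was 1 library. The FAK-absent count passed without FAK-nls replicate 1 (1034) or replicate 2 (1037), each with an unadjusted exact permutation p of 0.0476. With a FAK-/- library left out, 7 choices remain and no p under 0.05 can occur. The similarity difference turned to 0.0116 without the FAK-nls line. It was not computed with 50% covered, a rule for merged regions that the Jaccard index does not use.

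Per library, the AP-1 difference was −1.54 to −0.785 and the promoter difference 1.05 to 2.03 without 1 library. Without FAK-WT replicate 1 both had an exact permutation p of 0.0476, unadjusted and the smallest possible there. With all deposited peaks the AP-1 difference was −0.122. The ETS difference turned to 0.195 with the minimum q and ran from −0.215 to 0.0513 without 1 library. The GATA difference turned to 0.00205 in 200 bp. The p53 difference turned to −0.0301 (all peaks), −0.103 (minimum q) and −0.0137 (200 bp), and ran from −0.0362 to 0.0745 without 1 library. Between the sets, with all deposited peaks the differences turned to 14.3 points (AP-1), −3.65 (ETS), 3.84 (TEAD), 1.00 (GATA), −0.000632 (promoter) and −3.54 (GC). With the minimum q they turned to 3.72 (AP-1) and 0.222 (CTCF). Outside promoters they turned to 0.335 (AP-1), −3.69 (ETS), 2.96 (TEAD) and −2.35 (GC), and in 200 bp to −0.937 (ETS). Without 1 library AP-1 ran from −17.4 to −3.43, GATA from −3.35 to −1.40, RUNX from 0.492 to 4.77, p53 from −1.41 to −0.536, GC from 1.77 to 4.67, ETS from −1.37 to 1.77 and TEAD from −2.26 to 1.96. Of 291 values under alternatives, 232 kept their direction and their side of the threshold and, for counts of regions, also stayed within 1.5 times the reported count.

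Replicate numbers did not pair the lines (correlations of replicate differences between lines, −0.0983 to 0.0302). With the replicate block, 16 choices remain and the smallest p is 0.0625, so no p under 0.05 can occur. By exact permutation the FAK-present count of 550 had p = 0.125 and the FAK-absent count of 828 p = 0.188.

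The limits are those of peak calls. The number of reads was not used here, weak regions pass or miss the equal number by small differences in rank, and 2 FAK-/- libraries of 1 clone allow few choices.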

Other observations

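Of the 63 FAK-present regions without a FAK-/- peak at any rank, 37 lay between genes, 20 in introns, 5 at promoters and 1 in an exon. An AP-1 motif was in 39 of them (61.9%), against 38.4% of the whole set. Of the 27 FAK-absent regions without a FAK-expressing peak at any rank, 14 lay in introns and 9 (33.3%) held an AP-1 motif, against 50.4% of that set. These subsets were formed after the values were seen and were not tested.

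Of these 63 regions, 8 were called in all 6 FAK-expressing libraries. At the 3 with the best ranks, the region 54341 bp past the start of *Sema3c*, a secreted guidance factor, had a fold enrichment of 4.35 to 6.84. That in the *Setd3* promoter window, for an actin histidine methyltransferase, had 3.93 to 5.45, and that 197935 bp past the start of *Vegfc*, a lymphatic growth factor, had 3.99 to 6.24. The other 5 were closest to *Epha3*, *Efnb2*, *Abcb5*, *Tmsb4x* and *Galnt13*. *Efnb2* encodes an ephrin ligand and *Epha3* an ephrin receptor, and their regions lay 928127 bp and 230686 bp past the start. Among the 27 FAK-absent regions were the promoter of *Ssh2*, a phosphatase that activates the actin-severing protein cofilin, with 4.57 and 4.61 in FAK-/-, and an intron of *Fto*, with 5.26 and 4.78. These genes were named after their values were seen.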
